A study of Mus musculus with 15 samples.

Results

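The genes of the desmosome, the button-like junction that rivets neighbouring keratinocytes together, were followed across healed and normal mouse skin. The 10 members were found by gene symbol among the 18929 genes of the table. They are the desmogleins Dsg1a, Dsg1b, Dsg2 and Dsg3, the desmocollins Dsc1, Dsc2 and Dsc3, and the plaque proteins plakophilin 1 (Pkp1), desmoplakin (Dsp) and plakoglobin (Jup). RNA had been sequenced from 15 samples of dorsal skin of male balb/c mice, 4 to 6 weeks old at wounding and labelled WT, in 5 groups of 3. The acellular 10 mm and acellular 15 mm groups were skin regrown over full-thickness excisional wounds of these sizes covered with printed Matrigel beads that held no cells. The paper's results give the sizes as side lengths, whereas its methods call the wounds rounded. The HDB 10 mm and HDB 15 mm groups received beads of the same gel, of which some carried human umbilical cord mesenchymal stem cells (MSCs) at high density, placed sparsely among cell-free ones. The normal group was skin without a wound, so it differed from the acellular groups by the wound and by the implanted gel together. From the HDB groups it differed by the transplanted cells as well. The methods state 4 weeks of implantation for the sequenced skin but end the wound experiment on day 21. The transplanted cells were human, whereas the reads were assigned to mouse genes, so transcripts of the MSCs themselves were not a target of the measurement. Nothing in the labels says that the 3 samples of a group came from different animals, so p-values measure the spread between these samples only.

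A desmosome holds 2 adjoining cells through the outer parts of desmogleins and desmocollins, which are cadherins that bind each other across the gap. Inside each cell the tails of these cadherins bind plakoglobin and plakophilin, and desmoplakin ties that plaque to the keratin filaments. In epidermis the cadherins are layered. Dsg3 and Dsc3 are strongest in the basal layers, Dsg1 and Dsc1 in the differentiated layers, and Dsg2 and Dsc2 are the broadly expressed pair that simple epithelia also use.

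Total counts lay between 15840551 and 18404188 per sample, and the 10 members together held 0.205% to 0.490% of them. All 10 members passed the filter on low counts, with the lowest count of any member in any sample being 245 (Dsg2). Dsg1a and Dsg1b are uncertain as separate genes, because 45.5% of the 50-base stretches of the Dsg1b transcript also occur in Dsg1a, and their counts held decimals in 13 (Dsg1b) and 15 (Dsg1a) samples where reads had been shared out. The other 8 members held whole counts in every sample, and neither Dsg2 nor Dsg3 shared a 50-base stretch with Dsg1a or Dsg1b. In GRCm38.p6, the build named in the submitters' processing notes, Pkp1 lies at chr1:135871394-135919207, Dsp at chr13:38151294-38198577 and Jup at chr11:100368856-100397839. The samples were whole skin, so fewer keratinocytes and less RNA per keratinocyte cannot be told apart in the level of a single gene. Markers of keratinocytes (Krt5 and Krt14) were high in every group, while the 8 skeletal muscle genes checked summed to 50360 to 61240 CPM (counts scaled to library size) in normal skin and to 644 to 36680 CPM in wounds, so the normal samples also held muscle.

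The promoters of Jup and Dsp, which rose in acellular 15 mm wounds as described further on, are shown as examples, and those of the other members are not printed. RefSeq sequences (GRCm38.p6) upstream of the start are given 5′ to 3′ on the gene's strand, with GC boxes (GGGCGG on either strand) and CCAAT boxes (CCAAT on either strand) in capitals. For Jup, on the minus strand, chr11:100397840-100398040 is printed, and the 49 bases next to the start are left out because they fall inside the annotated gene.
Jup: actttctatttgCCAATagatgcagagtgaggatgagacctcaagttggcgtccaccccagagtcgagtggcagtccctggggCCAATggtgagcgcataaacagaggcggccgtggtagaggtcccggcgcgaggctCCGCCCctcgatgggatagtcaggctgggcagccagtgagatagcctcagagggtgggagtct
Dsp, chr13:38151044-38151293, plus strand: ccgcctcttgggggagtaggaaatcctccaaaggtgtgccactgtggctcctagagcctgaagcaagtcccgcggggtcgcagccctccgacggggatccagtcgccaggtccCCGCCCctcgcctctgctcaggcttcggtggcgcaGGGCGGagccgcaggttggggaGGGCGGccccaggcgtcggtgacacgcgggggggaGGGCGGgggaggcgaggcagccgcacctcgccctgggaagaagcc
The full 250 bases before each start were searched on both strands with motifs that did not overlap. Jup held 2 GC boxes, 42 and 112 bases before the start, of which the nearer lies in the stretch not printed, and 2 CCAAT boxes at 167 and 238 bases. Dsp held 4 GC boxes, at 45, 80, 102 and 137 bases, and no CCAAT box. Of 32851 distinct promoter windows of this length, 32.7% held a GC box and 33.8% a CCAAT box. The letters TATAAA (12.4% of windows), the AP-1 site TGANTCA (6.7%) and the Snail-type E-box CACCTG (17.2%) were in neither window. Pkp1 is named only.

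To compare levels between genes, CPM were divided by transcript length in kilobases. In normal skin Dsp stood highest at 95.6 ± 6.06 CPM per kb (SD, n = 3), followed by Jup at 80.0 ± 5.26, Pkp1 at 78.6 ± 8.32, Dsg1a at 69.6 ± 11.99 and Dsc3 at 67.7 ± 4.68. A second tier held Dsc1 at 29.0 ± 8.53 and Dsg1b at 19.4 ± 2.37 CPM per kb. Dsg3 (7.90 ± 1.40), Dsc2 (4.78 ± 0.826) and Dsg2 (3.28 ± 0.558 CPM per kb) were the lowest of the 10. Jup and Pkp1, Pkp1 and Dsg1a, Dsg1a and Dsc3, and Dsc1 and Dsg1b were neighbours whose mean ± SD ranges overlapped. In all 4 wound groups Dsp and Pkp1 were the first and second by this measure. Dsc3 reached 94.96 ± 25.3 to 132 ± 26.7 CPM per kb there and stood above Dsg1a, its near equal in normal skin. Dsc2 and Dsg2 stayed among the lowest, at 5.29 to 10.97 CPM per kb for the group means.

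**Figure D1:**
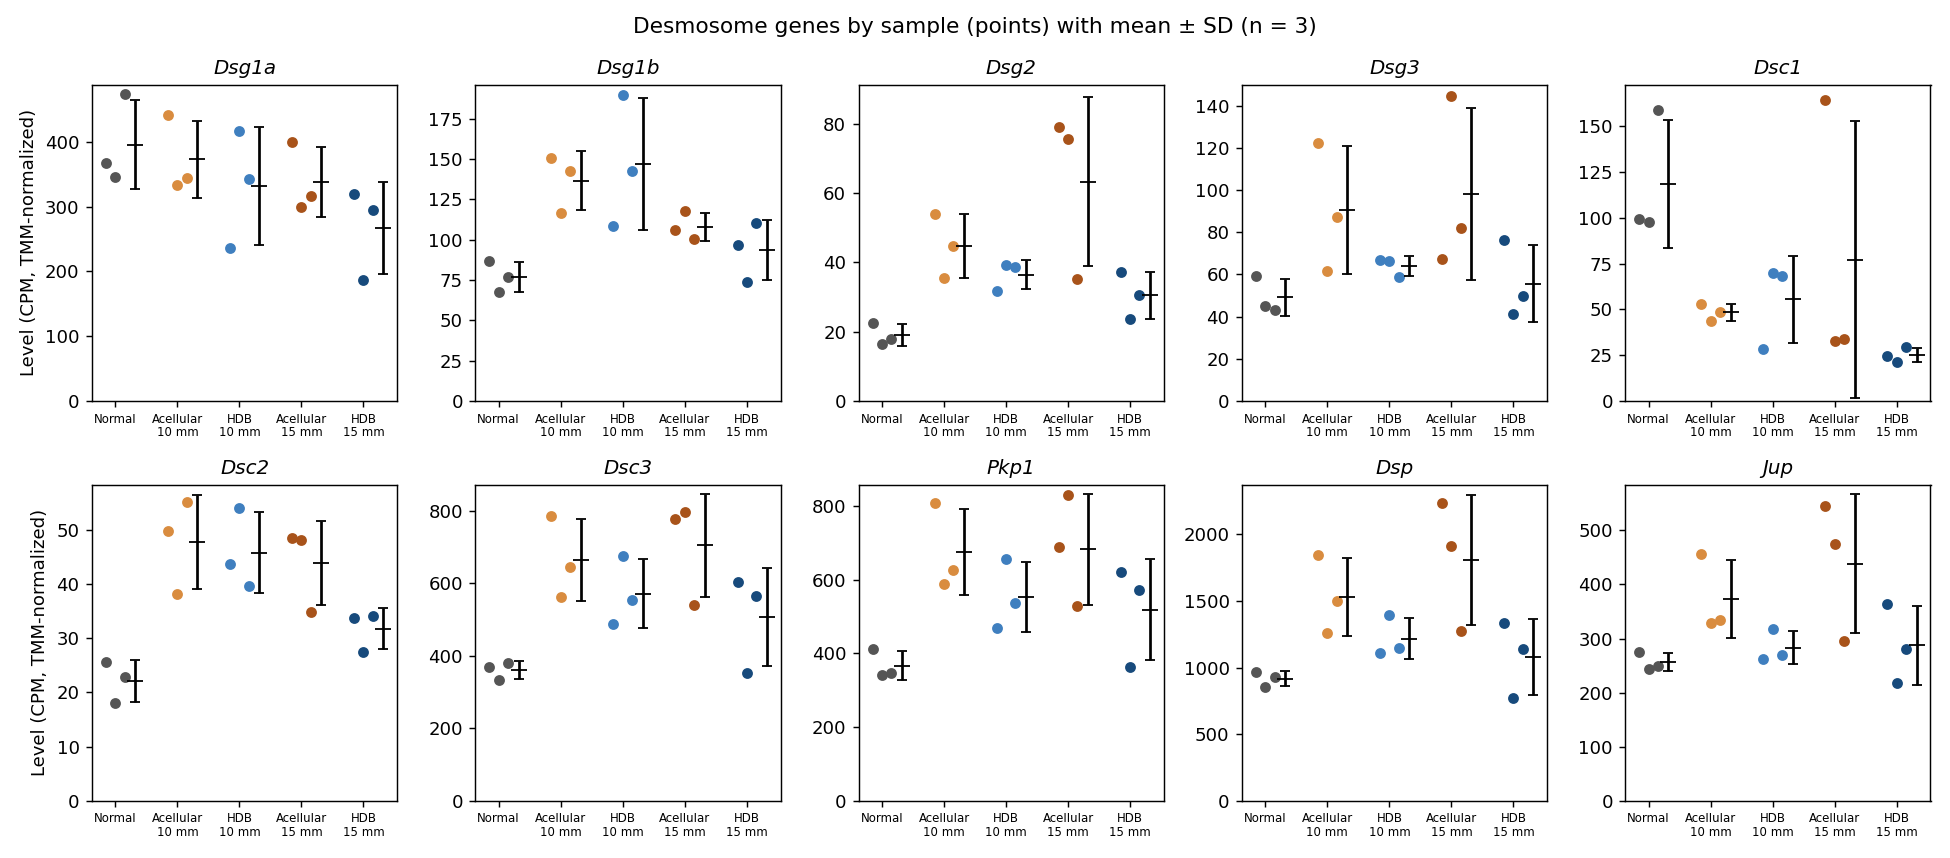
Level of each of the 10 desmosome genes (TMM-normalized CPM, linear axis from 0) in each of the 15 samples, with a point per sample and, beside the points, the group mean ± SD (n = 3). All members but Dsg1a and Dsc1 have their lowest group mean in normal skin, whereas Dsc1 stands at 97.5 to 159 CPM there and at 21.4 to 29.2 CPM in HDB 15 mm wounds.

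The first comparison asked how the junction genes of each healed wound differed from unwounded skin. In acellular wounds 5 (10 mm) and 7 (15 mm) of the 10 genes rose, led by Dsg2. Of the differentiation cadherins, Dsg1b rose at 10 mm (0.83 on the log2 scale) and stood at 0.49 at 15 mm (not called), while Dsg1a and Dsc1 passed the test in neither. In acellular 10 mm wounds 5 of 10 members rose and none fell, where 9.77% of the 15369 genes tested rose and 20.3% were called in either direction (edgeR's quasi-likelihood test, adjusted p under 0.05). In acellular 15 mm wounds 7 of 10 rose and none fell, against 17.6% of genes rising and 30.2% called. In HDB 10 mm wounds 3 of 10 rose and none fell, against 6.10% of genes rising, 6.23% falling and 12.3% called. In HDB 15 mm wounds no member rose and 1 fell, against 2.67% of genes rising, 2.51% falling and 5.18% called. The median log2 fold change of the 10 members was 0.85, 0.93, 0.50 and 0.26 in these groups in turn, while the median of all genes lay between 0.02 and 0.06. These 4 comparisons share the normal samples.

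The counts rest on small groups. Leaving out 1 sample at a time gave 1 to 6 calls for acellular 10 mm (1 without its replicate 1 or without normal replicate 2 or 3), 3 to 7 for acellular 15 mm (3 without normal replicate 2, 4 without normal replicate 3), 0 to 3 for HDB 10 mm (0 without its replicate 2 or without normal replicate 3, 1 without its replicate 3 or normal replicate 2) and 0 for HDB 15 mm in every case. In these fits 5.14% to 11.9%, 14.8% to 37.3%, 0.501% to 17.5% and 0.218% to 8.61% of all genes were called in turn. A list of 12 epithelial genes was read beside the members: 11, 9, 6 and 1 of 12 rose in acellular 10 mm, acellular 15 mm, HDB 10 mm and HDB 15 mm wounds, none fell, and its summed level was 4814 to 6537 CPM in normal skin against 7449 to 17180 CPM in wounds. This list is not independent of the junction, keratin and transcription factor lists further on. It shares genes with them, among them Krt5, Krt14, Cdh1, Cldn1, Trp63 and Grhl2. None of the 12 was at 0 in a whole group. Other lists moved too, to be read against the 20.3%, 30.2%, 12.3% and 5.18% of all genes called in these groups. Of 15 genes of the hair shaft and its inner sheath, 7, 15, 0 and 1 rose in the same order, and 6 of them were at 0 in every normal sample. Of 8 endothelial genes 8, 8, 6 and 0 fell, with a summed level of 628 to 705 CPM in normal skin and 111 to 471 CPM in wounds. Of the 8 fibroblast genes 4, 1, 0 and 0 fell, and of the 6 adipocyte genes 6, 0, 0 and 0. Of 6 outer root sheath genes 3, 5, 2 and 2 rose and 1, 1, 1 and 0 fell, and of 8 sebaceous gland genes 3, 1, 4 and 0 rose. The part of these tissues in the members' values was not tested. With the mean of the 12 epithelial genes as a covariate no member was called against normal in any wound group, 5 of the 16 called differences changed sign, and 0% to 0.0325% of all genes were called. That mean did not overlap between normal samples (7.32 to 7.66 on the log2 scale) and wound samples (7.68 to 8.88). The fit could therefore hardly part the covariate from the wound, for any gene.

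**Figure D2:**
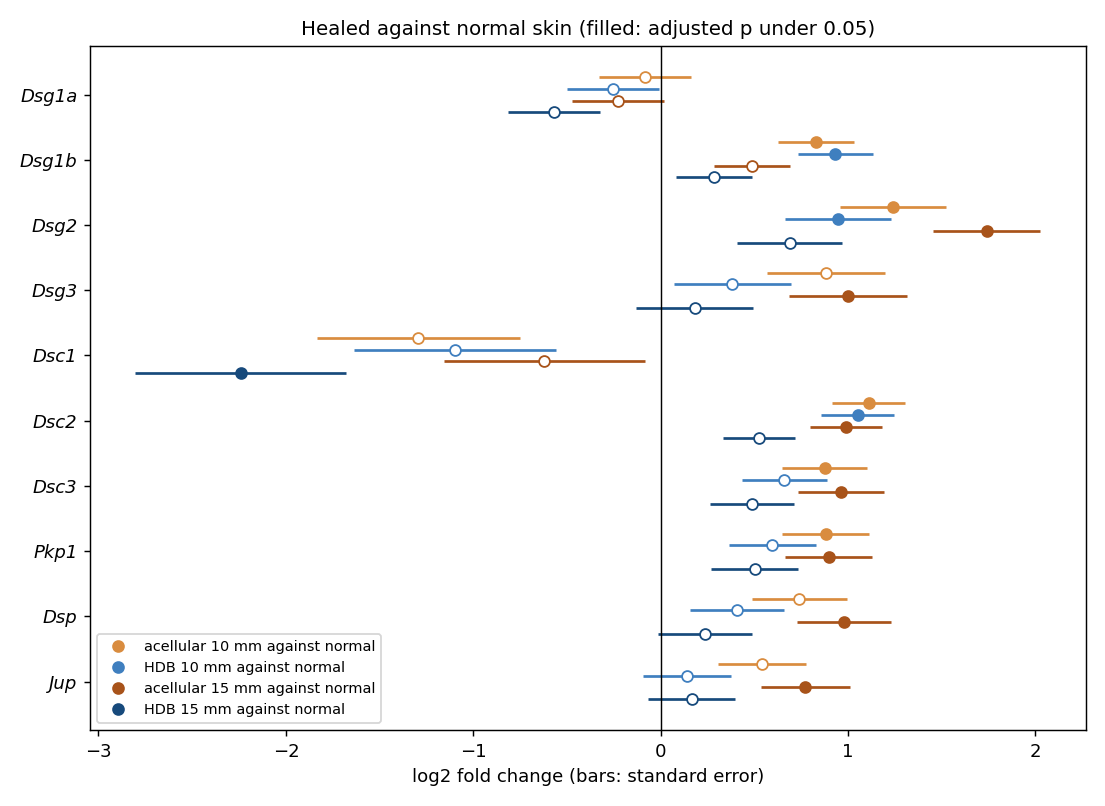
Log2 fold change of each member in each wound group against normal skin, with bars for the standard error and filled points for called genes. All members but Dsc1 and Dsg1a lie above 0 in all 4 groups, and Dsc1 and Dsg1a lie below 0 (Dsg1a in acellular 10 mm wounds was 0.04 once a trend with transcript length was removed), with Dsc1 lowest in HDB 15 mm wounds at -2.24.

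Among the desmogleins, Dsg2, the broadly expressed member, differed most. Its levels in normal skin were 22.6, 16.4 and 17.8 CPM. In acellular 10 mm wounds they were 54.0, 35.4 and 44.8 CPM, and in acellular 15 mm wounds 79.1, 75.5 and 35.3 CPM. HDB 10 mm samples held 31.7, 39.2 and 38.5 CPM and HDB 15 mm samples 37.3, 23.6 and 30.6 CPM. All 12 wound samples lay above all 3 normal samples. The log2 fold change of Dsg2 was 1.24 (SE 0.283, edgeR adjusted p = 0.0142) in acellular 10 mm and 1.74 (SE 0.286, adjusted p = 0.00358) in acellular 15 mm wounds. In HDB 10 mm wounds it was 0.95 (SE 0.281, edgeR adjusted p = 0.0468), a call that ended with the replicate block (adjusted p = 0.0521) without any filter (adjusted p = 0.0540) and with the length trend removed (adjusted p = 0.0525), and 5 of the 6 fits that left out a sample lost it too (adjusted p = 0.0715 to 0.137). The acellular 10 mm call was lost without its replicate 1 or normal replicate 2 or 3 (adjusted p = 0.0547 to 0.0611), and HDB 15 mm was not called (0.69, SE 0.281, adjusted p = 0.142).

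Dsg3, the basal desmoglein and a target of pemphigus vulgaris autoantibodies, stood at 59.0, 44.9 and 43.3 CPM in normal skin. It held 122, 61.7 and 87.3 CPM in acellular 10 mm and 67.4, 145 and 82.2 CPM in acellular 15 mm wounds. HDB 10 mm samples had 67.0, 66.1 and 58.6 CPM and HDB 15 mm samples 76.2, 41.0 and 49.6 CPM. Every acellular sample was above every normal one, whereas both HDB groups overlapped normal skin. Only the acellular 15 mm difference was called for Dsg3 (log2 fold change 1.00, SE 0.315, edgeR adjusted p = 0.0328), and it was no longer called without acellular 15 mm replicate 2 (0.61, adjusted p = 0.133) or without any 1 of the 3 normal samples (adjusted p = 0.0508 to 0.106). That call also ended with only the groups compared (1.03, adjusted p = 0.0796) and with the replicate block and length trend removal together (0.96, adjusted p = 0.0543), whereas the acellular 10 mm value was called by DESeq2 (0.86, adjusted p = 0.0223), with only the groups compared (0.87, adjusted p = 0.0325) and with the length trend removed (1.02, adjusted p = 0.0423).

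Dsg1a and Dsg1b encode the mouse forms of desmoglein 1, the desmoglein of the upper epidermis. Dsg1a stood at 368, 346 and 474 CPM in normal skin and at 187 to 442 CPM over the 12 wound samples. Its log2 fold change was -0.09 and -0.23 in the acellular groups and -0.26 and -0.57 in the HDB groups at 10 mm and 15 mm, none of them called. The HDB 15 mm samples of Dsg1a, at 320, 187 and 295 CPM, were all below normal skin, and the other wound groups overlapped it. Dsg1b stood at 86.5, 67.7 and 76.5 CPM in normal skin, at 151, 116 and 143 CPM in acellular 10 mm, and at 108, 190 and 142 CPM in HDB 10 mm wounds. It rose in these 10 mm groups, by 0.83 (SE 0.202, edgeR adjusted p = 0.0174) and 0.93 (SE 0.202, adjusted p = 0.0186) on the log2 scale. The first call was lost without acellular 10 mm replicate 1 or normal replicate 2 or 3 (adjusted p = 0.0681 to 0.0730), and the second without HDB 10 mm replicate 2 or 3 or normal replicate 2 or 3 (adjusted p = 0.0585 to 0.0796). At 15 mm Dsg1b held 106, 118 and 100.1 CPM in acellular wounds, all above normal skin (log2 fold change 0.49, adjusted p = 0.0823), and 96.9, 73.8 and 110.1 CPM in HDB wounds, which overlapped it. Reads shared between Dsg1a and Dsg1b can shift counts from one to the other.

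The desmocollins split. Group means of Dsc2 and Dsc3 were higher in all 4 wound groups than in normal skin, and those of Dsc1 were lower. Dsc2, the broadly expressed desmocollin, stood at 25.6, 18.01 and 22.8 CPM in normal skin and at 27.5 to 55.2 CPM in the 12 wound samples, with no overlap. It rose by 1.11 (SE 0.194, edgeR adjusted p = 0.00622) in acellular 10 mm, 0.99 (SE 0.193, adjusted p = 0.00562) in acellular 15 mm and 1.05 (SE 0.194, adjusted p = 0.0122) in HDB 10 mm wounds on the log2 scale. The acellular calls of Dsc2 held whichever sample was left out. The HDB 10 mm call ended without its replicate 2 (0.92, adjusted p = 0.0557) or normal replicate 3 (1.08, adjusted p = 0.0563).

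Dsc3, the basal desmocollin, was by CPM per kb the most abundant desmosomal cadherin of the wounds. Normal skin held 369, 333 and 381 CPM. Acellular 10 mm wounds held 785, 561 and 644 CPM and acellular 15 mm wounds 777, 796 and 540.4 CPM, all above normal skin. HDB 10 mm wounds had 488, 674 and 552 CPM, also above normal skin, and HDB 15 mm wounds 602, 352 and 565 CPM, with replicate 2 inside the normal range. Dsc3 passed the test in the acellular groups, where it rose by 0.88 (SE 0.228, edgeR adjusted p = 0.0216) and 0.96 (SE 0.228, adjusted p = 0.0109), with HDB 10 mm at 0.66 (adjusted p = 0.0718) and HDB 15 mm at 0.49 (adjusted p = 0.189). DESeq2 (adjusted p = 0.0226) and the fit of only the groups compared (adjusted p = 0.0449) called the HDB 10 mm value. The 10 mm call was the less firm and was lost without acellular 10 mm replicate 1 or any 1 of the normal samples (adjusted p = 0.0559 to 0.0926).

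Dsc1, the desmocollin of differentiated keratinocytes, went the other way. Normal skin held 99.3, 97.5 and 159 CPM. Acellular 10 mm wounds held 52.9, 43.9 and 48.3 CPM, HDB 10 mm wounds 28.1, 70.0 and 68.3 CPM and HDB 15 mm wounds 24.6, 21.4 and 29.2 CPM, all under every normal sample. In acellular 15 mm wounds replicates 2 and 3 were as low, at 32.7 and 34.0 CPM, but replicate 1 stood at 164.5 CPM, above normal skin. That sample was also far above the others in a list of 15 hair shaft and inner root sheath genes, which summed to 24500 CPM there, 12.2 to 15.0 CPM in normal skin and 32.9 to 1999 CPM in the other 11 wound samples. Whether hair follicle tissue in that sample had a part in its Dsc1 level was not tested. Dsc1 passed the test in HDB 15 mm wounds, where it fell (log2 fold change -2.24, SE 0.561, edgeR adjusted p = 0.0404). The call was lost with the replicate block (-2.25, adjusted p = 0.0673) and without any 1 of the 6 samples (adjusted p = 0.0685 to 0.158). Acellular 10 mm (-1.29, adjusted p = 0.102), HDB 10 mm (-1.10, adjusted p = 0.184) and acellular 15 mm (-0.62, adjusted p = 0.395) were not called, although without replicate 1 the acellular 15 mm value was -1.83 (adjusted p = 0.00734) and with only the groups compared the acellular 10 mm value was -1.31 (adjusted p = 0.00497).

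All 3 plaque genes rose in acellular 15 mm wounds. Dsp, the link to keratin, stood at 970, 855 and 927 CPM in normal skin. It held 1843, 1259 and 1497 CPM in acellular 10 mm and 2235, 1916 and 1275 CPM in acellular 15 mm wounds. HDB 10 mm wounds held 1111, 1393 and 1148 CPM and HDB 15 mm wounds 1332, 770.3 and 1139 CPM. Only the HDB 15 mm group overlapped normal skin, through its replicate 2. Dsp rose in acellular 15 mm wounds (log2 fold change 0.98, SE 0.252, edgeR adjusted p = 0.0148) and stood at 0.74 (adjusted p = 0.0536) in the acellular 10 mm group, with HDB 10 mm at 0.41 (adjusted p = 0.280) and HDB 15 mm at 0.24 (adjusted p = 0.575). The call ended without normal replicate 2 (0.92, adjusted p = 0.0518), with only the groups compared (1.01, adjusted p = 0.0717) and with the replicate block and length trend removal together (0.90, adjusted p = 0.0629). The acellular 10 mm value of Dsp was called by DESeq2 (0.71, adjusted p = 0.0176), with only the groups compared (0.73, adjusted p = 0.0230) and with the length trend removed (0.94, adjusted p = 0.0489).

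Pkp1, the plakophilin of the upper epidermis that strengthens desmosomal adhesion, stood at 412, 342 and 347 CPM in normal skin. Acellular wounds held 809.5, 589.9 and 628 CPM at 10 mm and 690.2, 829.7 and 529 CPM at 15 mm. HDB wounds held 469.5, 656 and 536.5 CPM at 10 mm and 622, 364 and 572 CPM at 15 mm. All but the HDB 15 mm group lay above normal skin without overlap. Pkp1 rose by 0.88 (SE 0.233, edgeR adjusted p = 0.0231) and 0.90 (SE 0.233, adjusted p = 0.0153) on the log2 scale in acellular 10 mm and 15 mm wounds, with HDB 10 mm at 0.60 (adjusted p = 0.104, or 0.0494 by DESeq2) and HDB 15 mm at 0.50 (adjusted p = 0.187). Both calls of Pkp1 were lost without normal replicate 2 or 3 (adjusted p = 0.0553 to 0.0855), the 10 mm call also without acellular 10 mm replicate 1 (0.73, adjusted p = 0.0984) and the 15 mm call also with only the groups compared (0.93, adjusted p = 0.0575).

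Jup, which encodes plakoglobin and serves adherens junctions as well as desmosomes, had the smallest log2 fold changes of the 3 plaque genes against normal skin, differences between these genes not being tested. Normal skin held 276, 244 and 250 CPM. Acellular 10 mm wounds held 457, 329 and 335 CPM and acellular 15 mm wounds 545, 475 and 295.5 CPM, all above normal skin. HDB 10 mm wounds had 262, 318 and 269 CPM and HDB 15 mm wounds 364, 218 and 280.3 CPM, both overlapping it. Jup rose in acellular 15 mm wounds (log2 fold change 0.77, SE 0.236, edgeR adjusted p = 0.0287), a call lost in 5 of 6 fits that left out a sample, all but that without its replicate 3 (adjusted p = 0.0592 to 0.0956), and in the fit of only the groups compared (0.80, adjusted p = 0.0854). That fit called Jup in acellular 10 mm wounds (0.53, adjusted p = 0.0325).

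Counting samples rather than calls, all 3 wound samples lay above all 3 normal ones for 8 of 10 members with acellular beads at 10 mm (29.1% of all genes) and again 8 at 15 mm (22.5%). With HDB beads this held for 6 members at 10 mm (25.7%) and 2 at 15 mm (23.8%). In that order, samples lay below for 1, 0, 1 and 2 members, against 27.2%, 21.5%, 23.4% and 22.6% of all genes. The HDB 15 mm members that lay above were Dsg2 and Dsc2, and those below were Dsc1 and Dsg1a.

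A ratio of 2 members inside 1 sample does not depend on library scaling, and 4 cadherin ratios were compared, each over 7 comparisons (28 exact permutation tests, with 0.5 added to each count). The log2 ratio of Dsc1 to Dsc3, the upper against the basal desmocollin, was -1.64 ± 0.335 (SD, n = 3) in normal skin. At 10 mm it was -3.77 ± 0.112 with acellular and -3.47 ± 0.576 with HDB beads, and at 15 mm -3.61 ± 1.23 and -4.31 ± 0.289. Every one of the 12 wound samples, the acellular 15 mm replicate 1 included (-2.24), was below the lowest normal sample (-1.89). The exact two-sided permutation p was 0.1 in each wound group (adjusted 0.255, not past the threshold), and 0.1 is the smallest that 3 against 3 samples allow.

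As shares of length-corrected desmocollin transcripts, Dsc1 made up 28.2% ± 4.84 in normal skin (SD, n = 3). In wounds it made up 8.14% ± 0.545 (acellular 10 mm), 10.8% ± 8.49 (acellular 15 mm), 10.1% ± 3.38 (HDB 10 mm) and 5.83% ± 1.02 (HDB 15 mm). Dsc3 took up most of the difference, with 67.1% ± 4.38 in normal skin and group means of 82.2% to 87.6% in wounds. These shares were not tested.

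**Figure D3:**
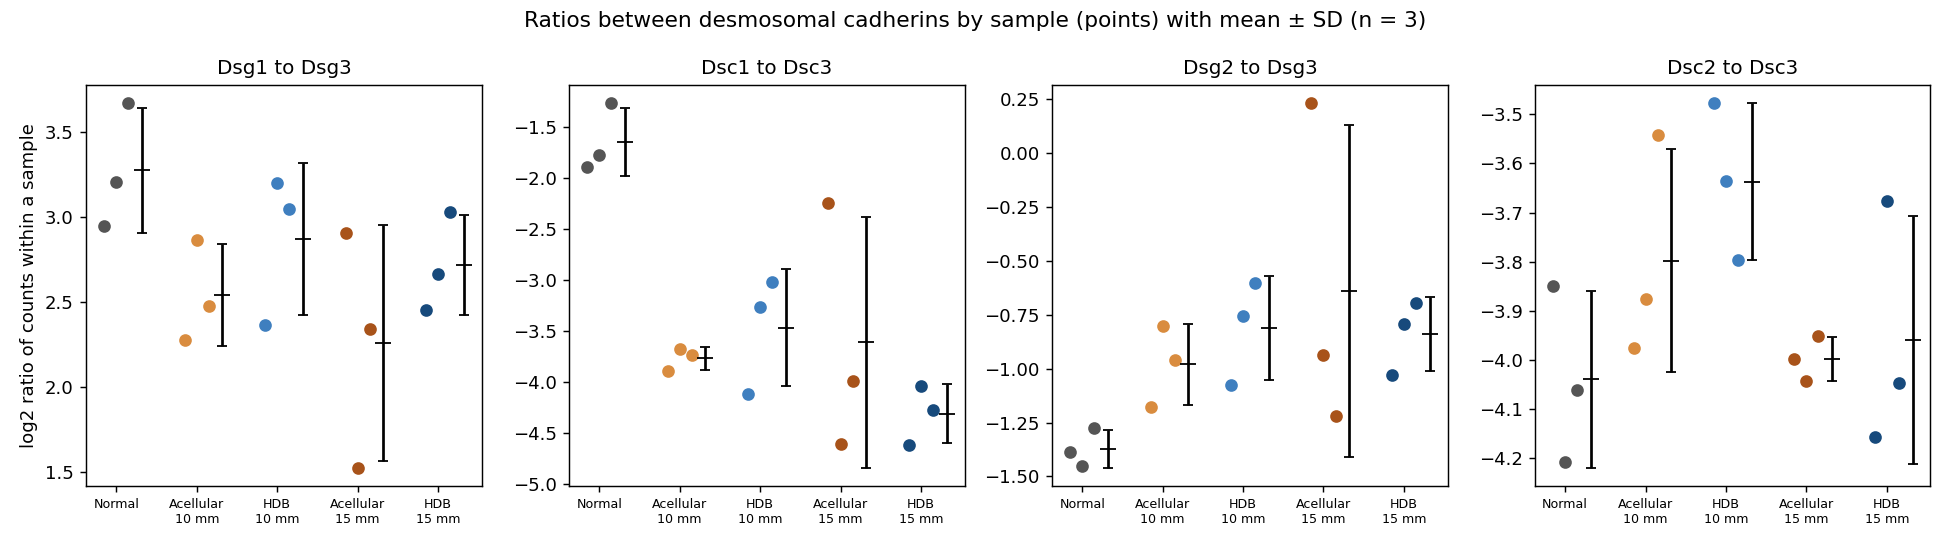
Log2 ratios of counts of 4 pairs of desmosomal cadherins, with a point for each of the 15 samples and the group mean ± SD (n = 3) beside it. The Dsc1 to Dsc3 ratio of the 12 wound samples lies between -4.61 and -2.24, under the normal samples at -1.89 to -1.26.

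The other ratios moved less. The log2 ratio of Dsg2 to Dsg3 was -1.37 ± 0.088 in normal skin and -0.98 ± 0.190, -0.64 ± 0.769, -0.81 ± 0.241 and -0.84 ± 0.171 in acellular 10 mm, acellular 15 mm, HDB 10 mm and HDB 15 mm wounds. All 12 wound samples lay above normal skin (exact permutation p = 0.1 in each group, adjusted 0.255). The log2 ratio of Dsg1 (Dsg1a plus Dsg1b) to Dsg3, which does not depend on how reads were split between the 2 Dsg1 genes, was 3.27 ± 0.367 in normal skin. It was 2.54 ± 0.300 and 2.26 ± 0.693 in acellular 10 mm and 15 mm wounds, without overlap (exact permutation p = 0.1, adjusted 0.255), and 2.87 ± 0.445 and 2.72 ± 0.292 in HDB 10 mm and 15 mm wounds, which overlapped normal skin. The Dsc2 to Dsc3 ratio lay clear of normal skin in HDB 10 mm wounds alone, with a difference of 0.40 (exact permutation p = 0.1, adjusted 0.255).

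By length-corrected share, Dsg1a and Dsg1b together made up 88.7% ± 2.25 of desmoglein transcripts in normal skin and 76.6% to 84.6% in the wound groups. Dsg2 made up 3.30% ± 0.587 in normal skin and 5.78% to 9.48% in the wound groups. Within the plaque the shares were steadier. Dsp held 35.9% to 39.9%, Pkp1 30.9% to 35.4% and Jup 26.5% to 31.5% as group means, with Jup highest and Pkp1 lowest in normal skin.

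The second comparison asked what the stem cell beads added at a given wound size. The members were mostly lower with HDB than with acellular beads, but none passed edgeR's test. At 10 mm 8 of 10 members were lower in HDB wounds, with a median log2 fold change of -0.25 against -0.01 over all genes. Neither a member nor any other gene was called there (0% of 15369 by edgeR, 543 genes at an unadjusted p under 0.05, none of them a member), and DESeq2 called no member. At 15 mm all 10 were lower, with a median of -0.54 against 0.00 over all genes. No member was called by edgeR at 15 mm, where 2.92% of genes were (0.573% higher, 2.35% lower), and 6 members had an unadjusted p under 0.05, as had 3566 of all genes.

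**Figure D4:**
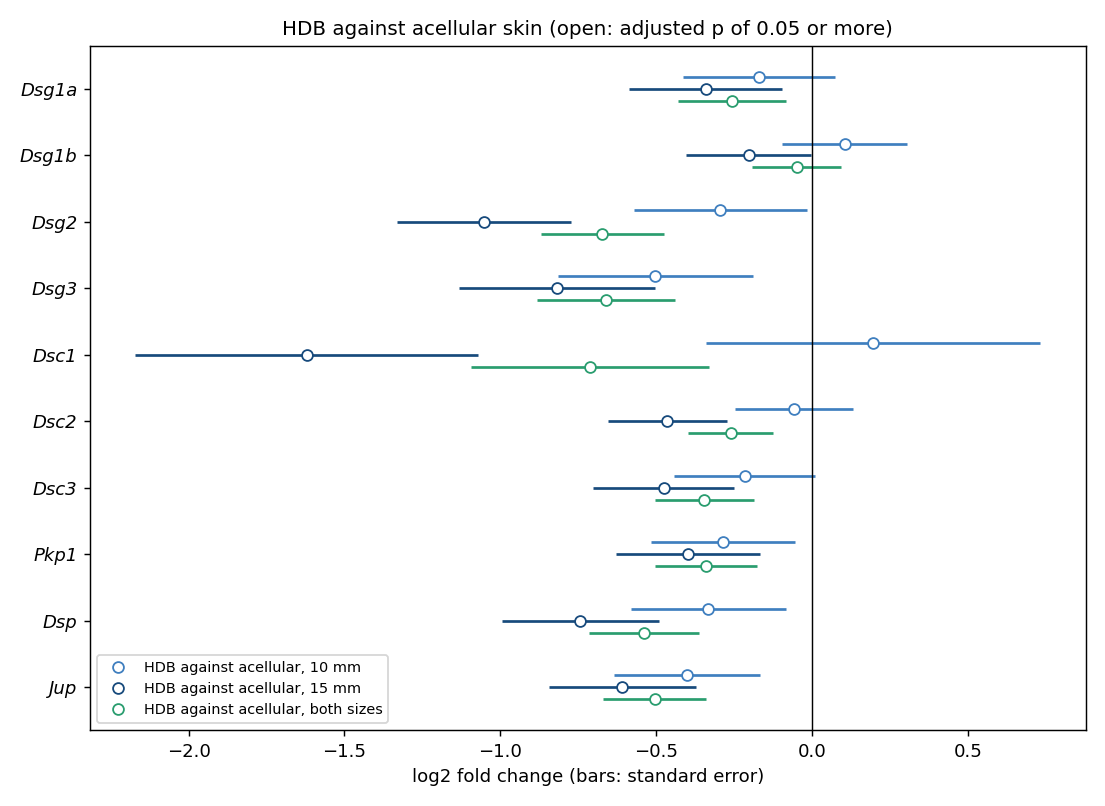
Log2 fold change of each member in HDB against acellular wounds at each wound size and with the sizes combined, with bars for the standard error and open points for genes not called. All 10 values at 15 mm lie under 0, from -0.20 (Dsg1b) to -1.62 (Dsc1), and none is called.

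At 15 mm Dsg2 came nearest to a call, with a log2 fold change of -1.05 (SE 0.280, edgeR adjusted p = 0.0616, 95% interval -1.68 to -0.43), although HDB 15 mm replicate 1 (37.3 CPM) was above acellular 15 mm replicate 3 (35.3 CPM). Within the 3 pairs of equal replicate number, Dsg2 was lower with HDB beads each time, as were Dsg1a, Dsc1, Dsc2, Dsp and Jup, and the other 4 members were lower in 2 of 3. That pairing was picked from these same data, and no label states it. With the replicate block Dsg2 was at -1.04 (adjusted p = 0.0759), and no member and 1.16% of all genes were called. Dsc1 had the largest difference at -1.62 (SE 0.550, adjusted p = 0.113) and its groups did not overlap, but without acellular 15 mm replicate 1, the sample rich in hair genes, it was -0.41 (adjusted p = 0.578). Dsp stood at -0.74 (SE 0.251, adjusted p = 0.111), Dsg3 at -0.82 (SE 0.314, adjusted p = 0.149, or -0.43 without acellular 15 mm replicate 2) and Jup at -0.61 (SE 0.235, adjusted p = 0.152). Dsc2, at -0.46 (adjusted p = 0.173), was the other member whose 15 mm groups did not overlap, where 11.7% of all genes were lower and 8.55% higher without overlap. At 10 mm only Jup did not overlap (-0.40, adjusted p = 1.00, with 6.47% of all genes lower and 4.53% higher without overlap).

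These 15 mm results turned on the tool, the filter and single samples. DESeq2 called 14.7% of all genes and 3 members, all lower in HDB 15 mm wounds, Dsg2 (adjusted p = 0.00349), Dsp (adjusted p = 0.0255) and Dsc1 (adjusted p = 0.0444). With the filter of a mean count of at least 50 edgeR called 5.24% of genes and of the members Dsg2 (-1.04, adjusted p = 0.0483). Without acellular 15 mm replicate 3 edgeR called 14.9% of genes and 4 members, namely Dsg2 (-1.34, adjusted p = 0.0159), Jup (-0.83, adjusted p = 0.0281), Dsp (-0.94, adjusted p = 0.0285) and Dsc1 (-1.98, adjusted p = 0.0334). That sample held the lowest level of its group for 7 of the 10 members, all but Dsg1a, Dsg3 and Dsc1, and its fibroblast list was at 14870 CPM against 3498 and 3946 CPM in replicates 1 and 2.

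Over both sizes all 10 members were lower with HDB beads (median log2 fold change -0.43), and no gene of 15369 was called (0%), with 4 members and 2428 genes at an unadjusted p under 0.05. The 4 were Dsg2 (-0.67, SE 0.197), Dsg3 (-0.66, SE 0.221), Dsp (-0.54, SE 0.177) and Jup (-0.51, SE 0.166), each with an edgeR adjusted p of 0.261. Exact permutation within size gave 0.035 for Dsg2, 0.04 for Dsg3, 0.02 for Dsp and 0.025 for Jup, before any adjustment and without regard to replicate numbers, and 0.075 to 0.66 for the other 6 members, where 0.005 is the smallest it can give. DESeq2 called Dsg2 (-0.66, adjusted p = 0.0382) and 2.94% of all genes. Dsg1b had the smallest difference, at -0.05 (95% interval -0.37 to 0.27). The difference of the HDB effect between sizes was called for no member and no gene (0%) by edgeR, with Dsc1 alone of the members under an unadjusted p of 0.05 (-1.82, edgeR adjusted p = 0.325, or -0.61 with adjusted p = 0.532 without acellular 15 mm replicate 1), beside 2064 of all genes.

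Other cell types moved beside these values. Of the 12 epithelial genes 11 were lower with HDB beads over both sizes (median -0.31, 0 called by edgeR). All 8 fibroblast genes were higher (median 1.00, 0 called), with summed levels of 8298 to 18590 CPM in HDB wounds and 3498 to 14870 CPM in acellular wounds. Over both sizes all 8 endothelial (median 0.57), all 8 immune (0.43), all 8 skeletal muscle (0.49) and all 6 adipocyte genes (0.80) were also higher with HDB beads, with 0 called. The sizes differed for muscle, with 3 of 8 genes higher at 10 mm (median -0.03) and 8 of 8 at 15 mm (0.91). Of the adipocyte genes 6 of 6 were higher at 10 mm (1.30) and 4 of 6 at 15 mm (0.31). All 15 genes of the hair list were lower, with 0 called, and summed to 48.1 to 826 CPM in HDB and 32.9 to 24500 CPM in acellular wounds, ranges that overlap. Fitted with the epithelial mean as a covariate, 5 of the 8 members below 0 at 10 mm moved above 0, while at 15 mm all 10 stayed below 0, from -0.03 (Dsg1b) to -1.37 (Dsc1). The part of cell composition in the lower desmosome values was not tested. Between HDB and acellular wounds the cadherin ratios gave an exact permutation p of 0.155 to 1 (adjusted 0.362 to 1). At a single size none could pass the threshold, since 0.1 is the smallest p that 3 against 3 samples allow.

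**Figure D5:**
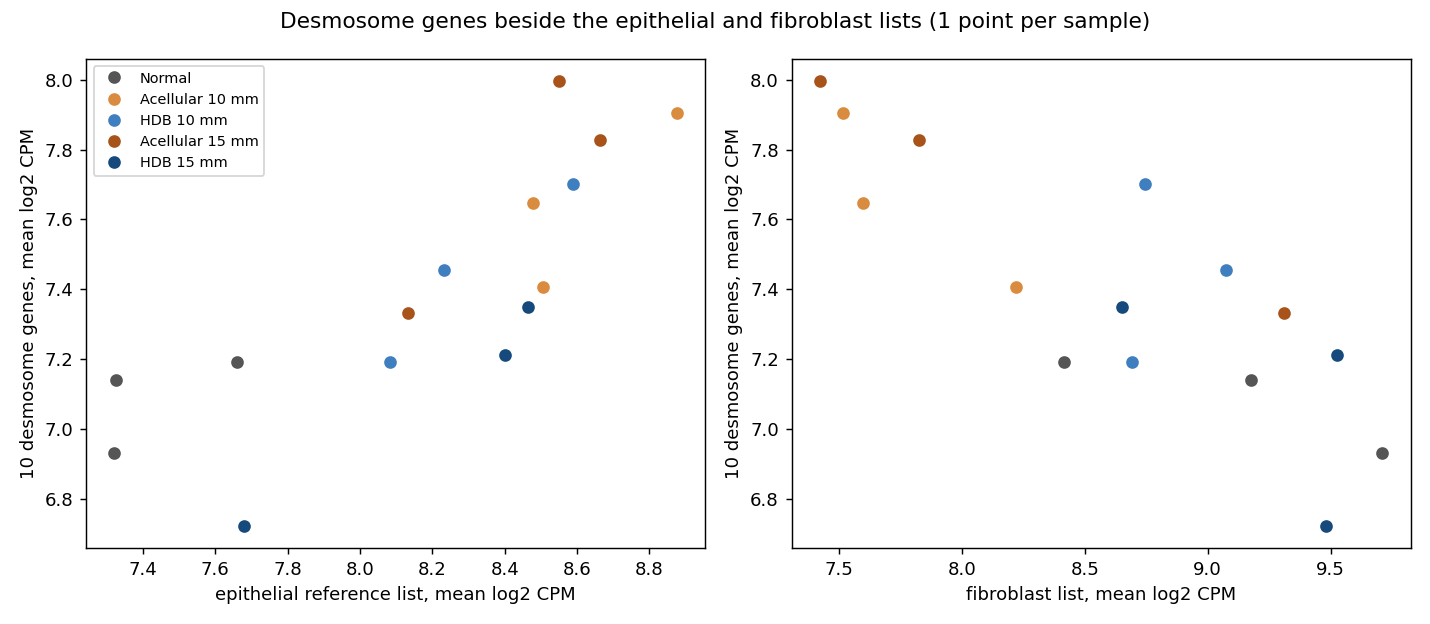
Mean log2 CPM of the 10 desmosome genes against the mean log2 CPM of the 12 epithelial genes (left) and of the 8 fibroblast genes (right), with 1 point per sample coloured by group. The HDB 15 mm sample with the lowest desmosome mean, replicate 2, is also the wound sample with the lowest epithelial mean (7.68), and normal samples lie at 7.32 to 7.66 on that axis.

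The rest of the desmosome was read from a list of 11 further genes, among them Pkp3, the plakophilin found in most epithelia, and Perp, a desmosomal membrane protein. Of these, 2 rose in acellular 10 mm wounds (Dsg1c 1.53, Pkp3 1.06) and 4 in acellular 15 mm wounds, while none was called in either HDB group against normal or between HDB and acellular wounds. Of all genes, 9.77% rose and 20.3% were called in acellular 10 mm wounds, and 17.6% rose and 30.2% were called in acellular 15 mm wounds. Besides Pkp3 (1.28), Dsg1c (1.64) and Pkp2 (1.08), the acellular 15 mm group included Dsg4, the desmoglein of the hair shaft. Dsg4 had no count in any normal sample and ran from 1.38 to 207 CPM in acellular 15 mm wounds, so no fold is given. Dsg1c was rare, at 0.433 ± 0.150 CPM in normal skin, and shares sequence with Dsg1a and Dsg1b. Perp had the highest mean CPM of the 11 over the 15 samples, at 1159 ± 128 CPM in normal skin and 1460 to 2051 CPM as wound group means, and was not called.

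Genes of neighbouring junctions are given as counts, to be read against the 20.3%, 30.2%, 12.3% and 5.18% of all genes called in acellular 10 mm, acellular 15 mm, HDB 10 mm and HDB 15 mm wounds. Of 11 adherens junction genes, 4 rose and 1 fell in acellular 10 mm, 8 rose in acellular 15 mm, 1 rose and 1 fell in HDB 10 mm and none was called in HDB 15 mm wounds. E-cadherin (Cdh1) rose by 0.97, 0.74 and 0.70 in the first 3 groups and P-cadherin (Cdh3) by 1.41 and 2.41 in the acellular ones, whereas Nectin3 fell by 1.22 and 1.60 in the acellular and HDB 10 mm groups on the log2 scale. Acellular 15 mm samples were spread widely for Cdh3, from 43.8 to 181 CPM (17.0 to 27.8 CPM in normal skin). Beta-catenin (Ctnnb1), the highest of that list in mean CPM over the 15 samples, rose in acellular 15 mm wounds by 0.91. Of 9 tight junction genes 3, 3, 0 and 0 rose in acellular 10 mm, acellular 15 mm, HDB 10 mm and HDB 15 mm wounds, with claudin 1 (Cldn1), the highest in mean CPM, at 0.96 and 0.69 in the acellular groups. Among 9 hemidesmosome genes, which anchor keratinocytes to the basement membrane, 2, 2, 2 and 0 rose in the same order and none fell. Of these, the laminin chain Lama3 rose in acellular 10 mm, acellular 15 mm and HDB 10 mm wounds. Col17a1, the highest of that list in mean CPM over the 15 samples though below Dst in normal skin, was not called. Between HDB and acellular wounds at 15 mm, the cadherin-binding catenin Ctnnd1 (-0.68, edgeR adjusted p = 0.0438) and Lama3 (-0.81, adjusted p = 0.0495) fell, and no other gene of the junction lists was called.

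Desmosomes are anchored to keratins, and of 10 epidermal keratins 4, 2, 2 and 2 rose in acellular 10 mm, acellular 15 mm, HDB 10 mm and HDB 15 mm wounds against normal skin. Of all genes, 9.77%, 17.6%, 6.10% and 2.67% rose in these groups, and 20.3%, 30.2%, 12.3% and 5.18% were called. Krt16, a keratin of wounded and hyperproliferative epidermis, rose in all 4 wound groups, by 3.70, 5.09, 4.65 and 6.03 on the log2 scale. Its acellular 15 mm samples were spread from 16.4 to 329 CPM (2.55 to 5.34 CPM in normal skin). Krt10, a keratin of the suprabasal layers, fell in acellular 15 mm wounds (-1.49). Between HDB and acellular wounds no keratin of the list was called, and 4 of 10 were higher with HDB beads at 10 mm (median -0.28) and 8 of 10 at 15 mm (median 0.37), among them Krt5 (0.08) and Krt14 (0.30), where all 10 desmosome members were lower. Of 9 epidermal transcription factors 3 rose in acellular 10 mm, 6 rose and 1 fell in acellular 15 mm, 1 rose and 1 fell in HDB 10 mm and none was called in HDB 15 mm wounds (all genes called: 20.3%, 30.2%, 12.3% and 5.18%). Grhl2, a grainyhead factor of epithelia, rose by 1.33, 1.25 and 1.12 in the first 3, Trp63, a master factor of stratified epithelia, by 1.08 and 0.92 in the acellular groups, and Klf4, a factor of terminal differentiation, fell by 0.62 and 0.51 in acellular 15 mm and HDB 10 mm wounds.

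Desmosomes of the outermost layer are cut by proteases as cells are shed. Of 11 genes of this proteolysis and its inhibitors, 2 rose and 1 fell in acellular 10 mm, 3 rose and 2 fell in acellular 15 mm, 1 rose and 1 fell in HDB 10 mm wounds and none was called in HDB 15 mm wounds, beside the same shares of all genes (20.3%, 30.2%, 12.3% and 5.18%). In acellular 15 mm wounds matriptase (St14) rose by 2.20, whereas kallikrein 5 (Klk5), which cleaves corneodesmosomes, and its inhibitor Spink5 fell by 1.73 and 1.51 on the log2 scale. The 3 samples of that group were spread widely for St14, from 68.3 to 379 CPM (38.0 to 48.4 CPM in normal skin). Spink5 ran from 33.8 to 115.5 CPM there and from 207 to 262 CPM in normal skin. In acellular 10 mm wounds Prss8 and Cst6 (of which Cst6 had the highest mean CPM of the list over the 15 samples, though below Spink5 in normal skin) rose by 0.98 and 1.70, and Adam9 fell by 0.68.

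How closely the members followed each other was described by the Pearson correlation of each member's log2 CPM with the mean of the others over the 15 samples, which share 5 groups. Dsp (r = 0.958), Dsc3 (0.943) and Pkp1 (0.912) were the closest to the rest, and Dsg1a (0.379) and Dsc1 (0.003) the least. Over the 12 wound samples alone Dsg1a reached 0.827 and Dsc1 0.618. The genes outside the family most like the mean of the members, among 11049 genes of at least 10 CPM, were Lrrc8e (r = 0.966), Limk2 (0.951), Acpp (0.946), Bpifc (0.945) and Cep170b (0.943).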

How the data were processed

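The authors deposited 1 table in which each value is an estimated count per gene, made from aligned reads, for 18929 mouse genes in 15 skin samples, with decimals where reads fitted several transcripts, and is not normalized. The submitters' processing notes name HISAT2 2.0.4, Bowtie2 2.2.5, RSEM 1.2.12 and GRCm38.p6 without their roles. Libraries were made from poly(A) RNA. Counts were rounded to whole numbers. Samples held 15840551 to 18404188 counts, and replicates differed by more than counting error, so the spread between the 3 samples of a group set the precision. In R 4.3.3, edgeR 4.0.16 was run on all genes with TMM scaling and filterByExpr, which left 15369 genes. All 5 groups entered 1 model, contrasts were read with the quasi-likelihood test, and p-values were adjusted by Benjamini-Hochberg over all genes and called under 0.05. Unless another tool is named, every adjusted p comes from that model, and its SE is the log2 fold change over the square root of F. A prior count of 2 was added for log2 CPM. Cadherin ratios were tested by exact two-sided permutation, with 20 arrangements for 3 against 3 samples and 400 over both sizes, and adjusted over 28 tests. Transcript lengths came from sequences of GRCm38.p6, 1 transcript per gene. The code was tested on simulated data. No pair of replicates was close enough to be 1 library deposited in duplicate.

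Alternatives were DESeq2 1.42.0, no filter, a mean count of at least 50, a fit of the compared groups alone, the replicate block, removal of each sample's trend with transcript length (15142 genes), the epithelial mean as a covariate, a log2 fold change of at least 1, a pseudocount of 5 for ratios, and leaving out each sample. In the 15 mm groups, acellular and HDB samples with the same number departed from their group means together (correlations of 0.397, 0.167 and 0.183), so the numbers were treated as pairing them, although no label says what they mark. No other pair of groups had all 3 above 0.1, although single values elsewhere reached 0.489 (replicate 1 of acellular 10 mm and HDB 15 mm). The pairing was therefore picked from these same data. All 10 members are named, and of each other list up to 3 called genes with the smallest adjusted p and the gene of the highest mean CPM, and the 5 genes most like the members. Some genes that this rule names are not reported here. The members and lists were chosen with earlier results of these data known.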

Additional observations from a re-analysis of the deposited data

How the results depend on the processing

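With 3 samples per group, the counts of called members were the least stable values. Of 132 such counts under alternative settings, 99 stayed within 1.5 times of the value reported and 33 did not. Of 1240 member fold changes, 1101 kept direction and call, 65 lost the call, 24 gained one and 50 changed sign (5 of these were called differences that also lost the call, all with the epithelial covariate), and of 248 ratio differences 238 kept their direction. Causes were not tested. The lowest count of a member was 245.

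In HDB against acellular 15 mm wounds (0 calls), DESeq2 called 3 members (14.7% of all genes), the filter of a mean count of at least 50 called 1 (5.24%), and leaving out a sample gave 0 to 4 (0% to 14.9%). Over both sizes (0 calls) these were 1 with DESeq2 (2.94%) and 0 to 1 with a sample left out (0% to 1.47%). Against normal skin, acellular 10 mm wounds (5 calls) gave 2 with a least log2 fold change of 1 (10.8%), 9 with only the groups compared (8 higher and Dsc1 lower, 42.0%), 0 with the epithelial covariate (0%) and 1 to 6 with a sample left out (5.14% to 11.9%). Acellular 15 mm wounds (7 calls) gave 1 (13.6%), 3 (6.57%), 0 (0%) and 3 to 7 (14.8% to 37.3%) under the same settings, Dsc1 being lower among the 7 without acellular 15 mm replicate 1. HDB 10 mm wounds (3 calls) gave 1 with a least log2 fold change of 1 (5.80%), 5 with DESeq2 (24.8%), 0 with the epithelial covariate (0.0195%) and 0 to 3 with a sample left out (0.501% to 17.5%). HDB 15 mm wounds (1 call) gave 0 with the epithelial covariate (0.0325%), 2 with only the groups compared (Dsg2 higher and Dsc1 lower, 22.9%) and 0 with any sample left out (0.218% to 8.61%).

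With the replicate block the HDB 15 mm count was 0 (1.54%), and also 0 with the block and the length trend removed together (1.76%). The block alone changed no other count by more than 1.5 times, though it ended the call of Dsg2 in HDB 10 mm wounds (log2 fold change 0.98, edgeR adjusted p = 0.0521).

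The epithelial covariate, whose values did not overlap between wound and normal samples, changed the sign of these log2 fold changes. In HDB against acellular 10 mm wounds they were 0.059 (Dsg1a), 0.047 (Dsg2), 0.12 (Dsc2), 0.073 (Dsc3) and 0.025 (Pkp1), and over both sizes 0.14 (Dsg1b). In acellular 10 mm wounds against normal they were -0.026 (Dsg1b), -0.22 (Dsg3), -0.22 (Dsc3), -0.29 (Pkp1), -0.36 (Dsp) and -0.53 (Jup), and in acellular 15 mm wounds -0.24 (Dsg1b), -0.11 (Pkp1) and -0.16 (Jup). In HDB 10 mm wounds they were -0.39 (Dsg3), -0.14 (Dsc3), -0.26 (Pkp1), -0.40 (Dsp) and -0.64 (Jup). In HDB 15 mm wounds they were -0.27 (Dsg1b), -0.085 (Dsg2), -0.52 (Dsg3), -0.24 (Dsc3), -0.26 (Pkp1), -0.49 (Dsp) and -0.53 (Jup). Removing the trend with transcript length turned Dsg1a in acellular 10 mm wounds to 0.037 (0.036 with the block). It turned the difference of the HDB effect between sizes to 0.065 for Dsg1a (0.027 with the block), 0.059 for Pkp1 (0.04 with the block) and 0.01 for Dsp.

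Leaving out 1 sample changed the sign of 10 fold changes, none of them called. In HDB against acellular 10 mm wounds Dsg1a ranged from -0.35 to 0.051, Dsg1b from -0.11 to 0.31 and Dsc2 from -0.20 to 0.059, and over both sizes Dsg1b ranged from -0.16 to 0.051. The difference between sizes ranged from -0.40 to 0.032 for Dsg1a, -0.61 to 0.074 for Dsg3 and -0.26 to 0.092 for Pkp1. Against normal skin Dsg1a ranged from -0.22 to 0.057 in acellular 10 mm wounds, and in HDB 15 mm wounds Dsg3 ranged from -0.11 to 0.36 and Jup from -0.041 to 0.33. Of the ratios, Dsc1 to Dsc3 over both sizes ranged from -0.45 to 0.15, and Dsg2 to Dsg3 from -0.49 to 0.24 at 15 mm and -0.16 to 0.20 over both sizes. Dsc2 to Dsc3 ranged from -0.10 to 0.14 in HDB against acellular 15 mm wounds, -0.042 to 0.14 in acellular 15 mm and -0.061 to 0.18 in HDB 15 mm wounds against normal.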
